A study of Mus musculus with 18 samples.

Results

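The genes described here set the pace at which a resting B cell can leave G1, the phase before DNA synthesis: the D-type cyclins Ccnd2 and Ccnd3, the kinases Cdk4 and Cdk6, the CDK inhibitors Cdkn1a, Cdkn1b, Cdkn2c and Cdkn2d, the cyclin G gene Ccng2 and the pocket protein gene Rb1. They were chosen with earlier results of these data known. Every probe set whose single gene symbol in the platform annotation was one of these 10 names was taken. That gave 26 probe sets of 10 genes, out of 18193 genes named by 1 symbol, and each of the 10 genes had at least 1 probe set among the 24 that passed the filter on signal, so all 10 were among the 11104 genes tested. The probe sets Cdkn1a 1421679_a_at and Rb1 1444400_at did not pass.

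D-type cyclins bind CDK4 and CDK6, and these complexes phosphorylate the retinoblastoma protein and its relatives, which releases E2F transcription factors and opens the way to S phase. Proteins of the INK4 family, among them p18 (Cdkn2c) and p19 (Cdkn2d), bind CDK4 and CDK6 and keep cyclin D out, whereas p27 (Cdkn1b) and p21 (Cdkn1a) bind cyclin-CDK complexes, above all those of CDK2. In B cells cyclin D2 is the D-type cyclin most tied to the receptor signal, Cdkn1b is held high in quiescent lymphocytes, and both Cdkn1b and Ccng2 are known targets of FOXO factors, which are switched off when PI3K is active.

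RNA was measured on 18 Mouse Genome 430 2.0 arrays in B lymphocytes positive for CD23, a receptor carried by follicular B cells, from the spleens of C57BL/6J mice. PF-303 inhibits BTK, a kinase that relays the B-cell receptor signal, and the antibody against IgD crosslinks that receptor in the living animal. There were 4 groups: mice given anti-IgD and PF-303 (n = 5 arrays), anti-IgD and vehicle (n = 4), PBS and PF-303 (n = 5), or PBS and vehicle (n = 4). PF-303 or vehicle was injected 2 h before anti-IgD, or PBS in its place, and cells were harvested 2 h after. Neither the age of the mice nor whether each array stands for a separate mouse is given in the labels, so the p-values reflect only how far these arrays scatter, in part perhaps for technical reasons.

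Values are MAS5 signals on a linear scale, 1 per probe set, and fold changes are on the log2(signal + 16) scale, which understates the change of low signals. MAS5 signals of different probe sets have no common scale, so each gene is compared only with itself across groups. A gene was called higher or lower when its limma p, adjusted by the Benjamini-Hochberg method over the 11104 genes, was under 0.05. The 7 follicular B-cell markers with a probe set exceeded the filter level on all 18 arrays. A sum over genes is led by those of highest signal, here Ms4a1 and Cd79b. The sum of the 7 ranged from 17860 to 25960 in anti-IgD with PF-303, from 13270 to 15870 in anti-IgD with vehicle, from 18180 to 31150 in PBS with PF-303 and from 18170 to 32710 in PBS with vehicle. The sum was thus lowest with anti-IgD and vehicle, without overlap with the other groups. Against PBS with vehicle 5 of the 7 genes were called in that group, where 17.4% of all genes tested were higher and 30.6% lower. The means of all 7 were lower with anti-IgD and vehicle than with PBS and vehicle, by unlike amounts: Cd79a 1116 against 2665, Ms4a1 4704 against 7273 and Cr2 2430 against 2641. Of 7 T-cell markers with a probe set 4 passed the filter: Cd3e and Cd4 did not exceed its level on any array, whereas Cd8a did on all 18, and the T-cell sum lay between 55.4 and 147. Of 6 macrophage and monocyte markers all were detected, led by Lyz2, and their sum ranged from 1466 to 3146, from 849.1 to 3109, from 1278 to 2296 and from 1432 to 2067 in the same order of groups. In anti-IgD with vehicle against PBS with vehicle, calls fell on 1 of these 6 genes, 2 of 4 plasma cell markers, 1 NK-cell marker and 1 germinal centre B marker. These counts stand beside the same 17.4% and 30.6% of all genes tested. PF-303 in stimulated cells gave calls for 2 follicular B markers and 1 dendritic cell marker, where 19.8% of all genes were higher and 10.4% lower. Cd14, a monocyte receptor for bacterial lipopolysaccharide, averaged 102 in anti-IgD with PF-303, 278 in anti-IgD with vehicle, 25.6 in PBS with PF-303 and 79.1 in PBS with vehicle. Csf1r of the same list was lower with anti-IgD and vehicle (267.5) than with PBS and vehicle (318.2), while its other genes averaged higher. The plasma cell markers did not move together. In the same order of groups Prdm1 averaged 77.2, 74.4, 31.6 and 27.1, but Sdc1 38.3, 36.0, 62.4 and 79.7. Xbp1 averaged 2061, 1870, 1695 and 1607, and Jchain 2159, 2031, 2008 and 2145. The part of these cells, and of the shift in B-cell markers, in the results below was not tested. In bulk samples fewer cells of a type and less RNA per cell cannot be told apart.

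**Figure D1:**
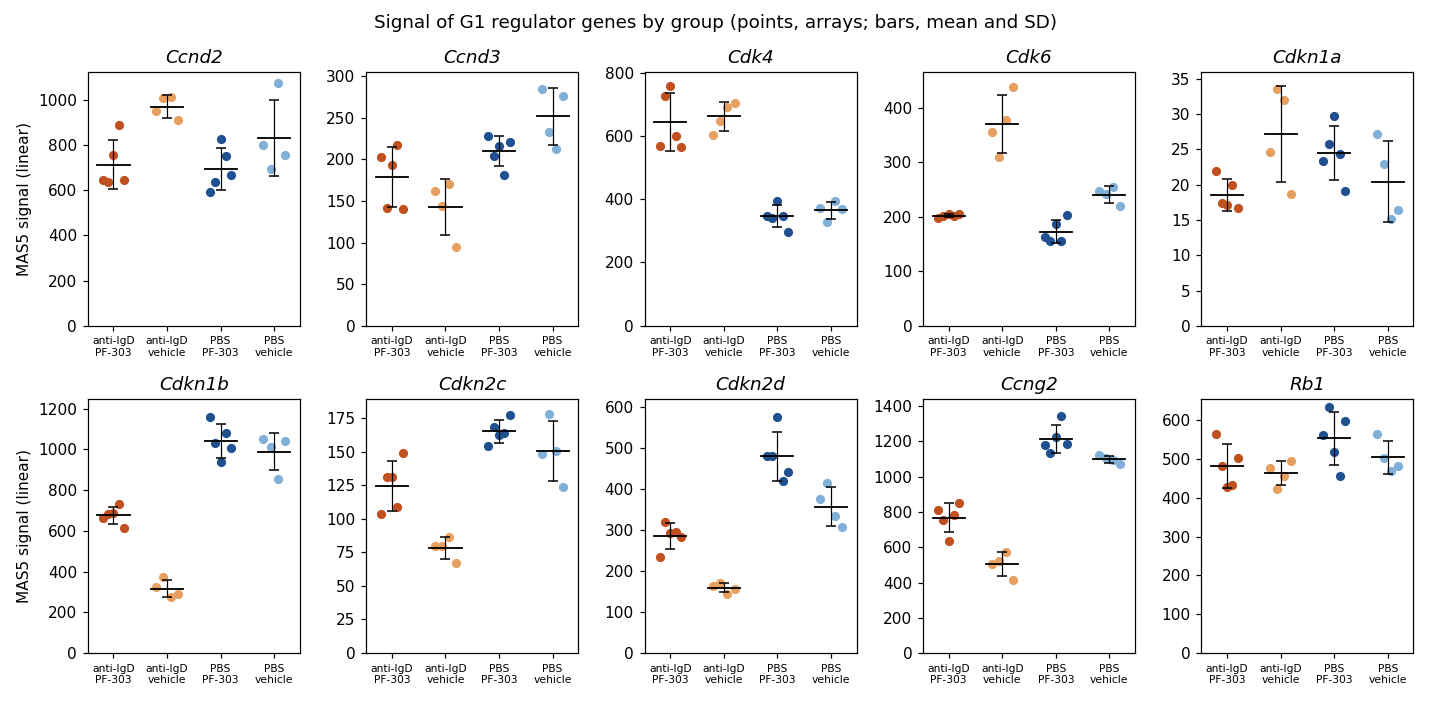
MAS5 signal (linear axis from 0) of the probe set used for each of the 10 genes. Each point is 1 array, the horizontal bar the group mean and the whiskers the SD, with n = 5 in the PF-303 groups and n = 4 in the vehicle groups. Cdkn1b, Cdkn2c, Cdkn2d and Ccng2 were lowest in anti-IgD with vehicle, and their means lay in between in anti-IgD with PF-303. Cdk4 was high in both anti-IgD groups, and Cdk6 was high with anti-IgD and vehicle.

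With receptor crosslinking both kinase genes rose and 4 genes of cell-cycle brakes, Cdkn1b, Cdkn2c, Cdkn2d and Ccng2, fell. Among mice given vehicle, anti-IgD left 2 of the 10 genes higher, Cdk4 and Cdk6, and 5 lower, Ccnd3, Cdkn1b, Cdkn2c, Cdkn2d and Ccng2, whereas Ccnd2, Cdkn1a and Rb1 were not called. Over all genes tested, 17.4% were higher and 30.6% lower in this contrast. The median log2 fold change of the 10 genes was -0.45, beside -0.13 for all genes tested. The 10 were chosen with earlier results of these data known, so their counts and median do not show how G1 genes at large respond. For each of the 7 called genes the arrays of the 2 groups did not overlap, which was not counted over all genes tested. The same 7 genes were called the same way on leaving out any 1 array.

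The largest fall was that of Cdkn1b, which encodes p27. Its signals were 665, 685, 687, 730.2 and 616 with anti-IgD and PF-303, 326, 371, 277 and 292 with anti-IgD and vehicle, 1159, 1031, 938, 1082 and 1005 with PBS and PF-303, and 1052, 1010.0, 854 and 1041 with PBS and vehicle. Every array of anti-IgD with vehicle was below every array of the other groups, and the anti-IgD arrays with PF-303 formed a level of their own between these and the PBS arrays. Cdkn1b averaged 317 ± 42 in anti-IgD with vehicle and 989 ± 92 in PBS with vehicle (SD, n = 4 each). The log2 fold change was -1.60 ± 0.09 (SE; limma, adjusted p = 6.7e-12). The PBS groups did not differ beyond their spread (0.08 ± 0.09 for PF-303 over vehicle, 95% interval -0.11 to 0.26). The other probe set of the gene, 1419497_at, fell as well (-1.02 ± 0.14, adjusted p = 3.6e-06 over all probe sets).

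Cdkn1b is shown with the 250 bases before its RefSeq start site (GRCm38.p6, chr6:134920151-134920400, plus strand), since it was the member that moved most and a known FOXO target. Letters in capitals are those of the GC box GGGCGG, sought on both strands, which 32.7% of all 32851 such windows hold. The forkhead core TGTTTAC, the E-box CACGTG and the E2F-like TTCCCGC were not found in this window, which says nothing about the factors that bind them.
Cdkn1b: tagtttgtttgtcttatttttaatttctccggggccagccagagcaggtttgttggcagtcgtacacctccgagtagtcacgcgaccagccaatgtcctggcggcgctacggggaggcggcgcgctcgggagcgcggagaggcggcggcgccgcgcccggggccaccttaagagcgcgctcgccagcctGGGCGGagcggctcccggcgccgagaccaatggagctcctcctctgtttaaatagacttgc

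Ccng2 encodes cyclin G2, an atypical cyclin that is high in cells at rest and can hold back the cell cycle. Its signals were 814, 754, 636, 785 and 851 with anti-IgD and PF-303, 505, 521, 575 and 413 with anti-IgD and vehicle, 1182, 1135, 1224, 1347 and 1184 with PBS and PF-303, and 1121, 1106, 1094 and 1075 with PBS and vehicle. The groups kept the order seen for Cdkn1b, with no overlap between the anti-IgD groups or between either of them and a PBS group. With anti-IgD and vehicle the mean was 504 ± 67.4, against 1099 ± 19.5 with PBS and vehicle (SD, n = 4 each), or on the log2 scale -1.11 ± 0.10 (adjusted p = 2.9e-09). Probe set 1448364_at gave -0.96 ± 0.16 (adjusted p = 2.8e-05 over all probe sets). Its upstream window (chr5:93267323-93267572, plus strand, GRCm38.p6) is shown because Ccng2 moved with Cdkn1b, and like that of Cdkn1b it holds 1 GC box, here on the other strand and in capitals, and none of the other letters sought.
Ccng2: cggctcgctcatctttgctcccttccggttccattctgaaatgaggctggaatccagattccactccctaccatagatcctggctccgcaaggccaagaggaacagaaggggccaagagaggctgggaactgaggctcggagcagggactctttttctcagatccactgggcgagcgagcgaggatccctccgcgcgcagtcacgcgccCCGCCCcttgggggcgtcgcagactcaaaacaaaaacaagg

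Both INK4 genes fell. Cdkn2d, which encodes p19-INK4d, had signals of 233, 319.5, 292, 296 and 282 with anti-IgD and PF-303, 164, 171, 145 and 157 with anti-IgD and vehicle, 479, 479.9, 575, 419 and 442 with PBS and PF-303, and 375, 413, 333 and 307 with PBS and vehicle. The lowest array of either PBS group was well above the highest of anti-IgD with vehicle, and the log2 fold change in vehicle-treated mice was -1.09 ± 0.11 (adjusted p = 2.1e-08). Cdkn2c, which encodes p18-INK4c, had 104, 131, 131, 109 and 149 with anti-IgD and PF-303, 79.5, 79.6, 86.3 and 67.1 with anti-IgD and vehicle, 154, 168, 162, 164 and 177 with PBS and PF-303, and 149, 178, 151 and 124 with PBS and vehicle. Its anti-IgD arrays with vehicle were below all others, at a log2 fold change of -0.82 ± 0.11 (adjusted p = 2.5e-06). Each of these genes had 1 probe set.

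Cdk4, a catalytic partner of the D-type cyclins, rose. Its signals were 567, 726, 756, 600.4 and 564 with anti-IgD and PF-303, 604, 647, 692 and 705 with anti-IgD and vehicle, 348, 342, 395, 347 and 298 with PBS and PF-303, and 371, 327, 394 and 368 with PBS and vehicle. All 9 anti-IgD arrays were above all 9 PBS arrays, whichever injection came first. The mean was 662 ± 46.2 in anti-IgD with vehicle and 365 ± 27.6 in PBS with vehicle (SD, n = 4 each), or on the log2 scale 0.83 ± 0.10 (adjusted p = 4.3e-07). The probe sets 1422439_a_at and 1422440_at gave 0.75 ± 0.11 and 0.78 ± 0.11, so its 3 probe sets rose alike.

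Cdk6, the second catalytic partner, rose as well but ended elsewhere under the inhibitor. Its signals were 198, 201, 206, 201 and 205 with anti-IgD and PF-303, 355, 309, 377 and 437 with anti-IgD and vehicle, 162, 155, 186, 156 and 203 with PBS and PF-303, and 247, 242, 254 and 219 with PBS and vehicle. The 4 arrays of anti-IgD with vehicle were the highest, those of PBS with vehicle came next, and both PF-303 groups lay below them. The log2 fold change in vehicle-treated mice was 0.58 ± 0.10 (adjusted p = 3.1e-05), and probe set 1455287_at gave 0.71 ± 0.09. Probe set 1460291_at, with a mean signal of 15.2 over the 18 arrays, gave -0.10 ± 0.15 (adjusted p = 0.64 over all probe sets).

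The upstream windows of the 2 kinase genes are shown because these genes rose together with anti-IgD and parted under PF-303. Both are on the plus strand of GRCm38.p6, Cdk4 at chr10:127063285-127063534 and Cdk6 at chr5:3343643-3343892. Capitals mark the E-box CACGTG, a sequence that MYC with MAX can bind, and in Cdk4 also 1 GC box read on the other strand (CCGCCC). The Cdk4 window holds 4 E-boxes, which begin 172, 118, 98 and 11 bases before the start, and that of Cdk6 holds 1, at 220 bases. Of all 32851 windows 6.02% hold at least 1 E-box and 7 windows (0.0213%) hold 4 or more.
Cdk4: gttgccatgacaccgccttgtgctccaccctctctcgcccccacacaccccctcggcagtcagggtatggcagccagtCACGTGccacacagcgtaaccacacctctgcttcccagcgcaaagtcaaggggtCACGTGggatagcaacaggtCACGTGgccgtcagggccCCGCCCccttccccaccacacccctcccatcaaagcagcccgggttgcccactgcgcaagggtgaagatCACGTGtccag
Cdk6: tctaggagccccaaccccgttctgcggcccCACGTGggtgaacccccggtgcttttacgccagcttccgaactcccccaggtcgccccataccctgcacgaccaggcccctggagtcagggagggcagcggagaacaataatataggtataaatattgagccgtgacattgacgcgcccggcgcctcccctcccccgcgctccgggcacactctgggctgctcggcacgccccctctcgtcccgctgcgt
Windows were given for 8 of the 10 genes, 11 windows in all, with no entry matched for Ccnd2 and Rb1. TGTTTAC occurred in 1 of the 11, a Ccnd3 window (243 bases before the start), as it did in 3.17% of all windows, and TTCCCGC in 1, of Cdkn2c, as in 3.82% of all. A match of letters is a description and not evidence of binding.

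Of the D-type cyclins Ccnd3 fell and Ccnd2 was not called. Ccnd3 had signals of 202, 141, 193, 217 and 140.2 with anti-IgD and PF-303, 162, 144, 170.3 and 94.5 with anti-IgD and vehicle, 228, 204, 216, 181 and 221 with PBS and PF-303, and 284, 233, 212 and 277 with PBS and vehicle. Anti-IgD with vehicle was below PBS with vehicle without overlap (-0.77 ± 0.15, adjusted p = 2e-04), while the other probe sets, 1438805_at and 1444323_at, gave -0.44 ± 0.24 and -0.42 ± 0.25 and were not called. Ccnd2 had signals of 645, 635, 755, 887 and 646 with anti-IgD and PF-303, 948, 1007, 1013 and 909 with anti-IgD and vehicle, 590.5, 636, 824, 753 and 666 with PBS and PF-303, and 801, 696, 1075 and 757 with PBS and vehicle. Replicate 3 of PBS with vehicle, at 1075, was above all 4 anti-IgD arrays with vehicle, and the change was not called (0.23 ± 0.13, adjusted p = 0.13). Without that array it was 0.36 and called. Of the 7 probe sets of Ccnd2, all with values above 0 (0.23 to 0.47), 5 were called higher with anti-IgD when every probe set was tested, where 17.3% of 20836 probe sets were called higher. The 7 read 1 gene on the same arrays and are not independent of each other.

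Cdkn1a and Rb1 gave no call in any contrast. Cdkn1a, which encodes p21, lay between 15.1 and 33.5 on every array, close to the filter level of 15.2, and its log2 fold change with anti-IgD in vehicle-treated mice was 0.25 ± 0.15 (95% interval -0.06 to 0.55). Rb1 lay between 424 and 634, at 463 ± 30.6 with anti-IgD and vehicle and 504 ± 41.7 with PBS and vehicle (SD, n = 4 each). Its log2 fold change was -0.12 ± 0.10 (95% interval -0.32 to 0.09), an interval that leaves out changes as large as those of the 7 called genes.

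**Figure D2:**
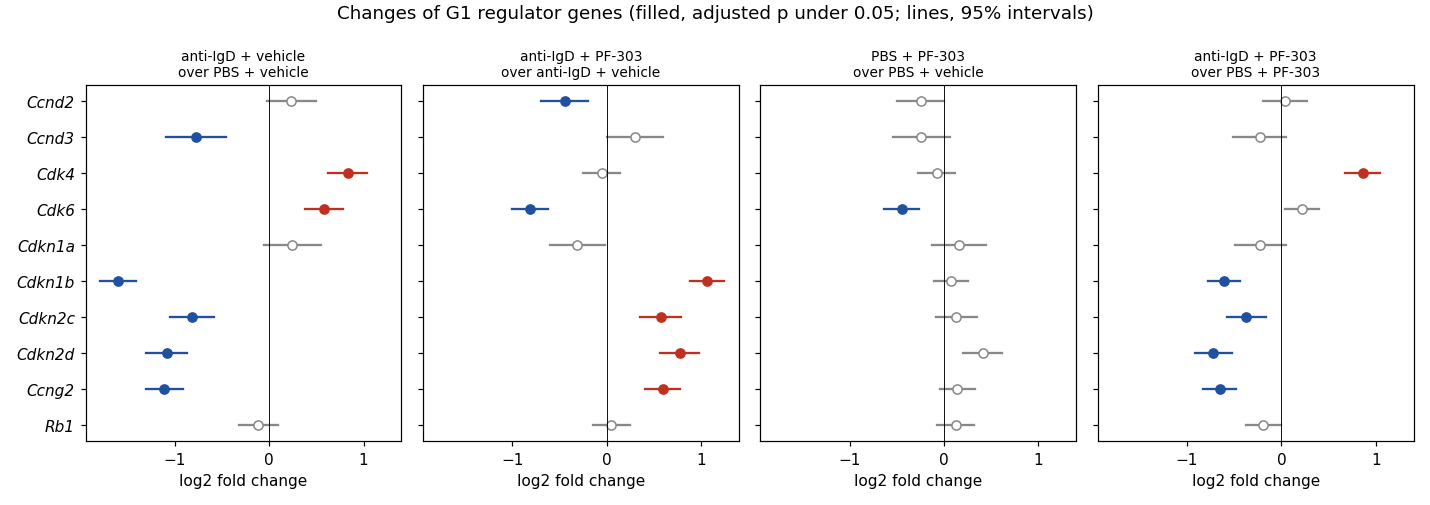
Log2 fold change of the 10 genes in 4 comparisons, named above each panel with the first group over the second. Points are limma estimates and lines their 95% intervals. Filled points had an adjusted p under 0.05, red for higher and blue for lower. The pattern of the first panel is turned round in the second for Cdkn1b, Cdkn2c, Cdkn2d, Ccng2 and Cdk6, and Cdk4 sits near 0 there (-0.05).

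In stimulated cells PF-303 left more RNA of the same 4 brake genes and less of Cdk6 and Ccnd2. Against anti-IgD with vehicle, 4 of the 10 genes were higher, Cdkn1b (1.07 ± 0.09, adjusted p = 1.5e-08), Cdkn2d (0.78 ± 0.10, 4.6e-06), Ccng2 (0.60 ± 0.09, 2.9e-05) and Cdkn2c (0.57 ± 0.11, 0.00023), and 2 were lower, Cdk6 (-0.81 ± 0.09, 8.6e-07) and Ccnd2 (-0.44 ± 0.12, 0.0067). Over all genes tested, 19.8% were higher and 10.4% lower. The median over the 10 genes was 0.18, beside 0.08 over all genes, with the same limit from the choice of the 10. This contrast shares the 4 arrays of stimulated, vehicle-treated mice with the previous one, so opposite signs in the pair are not independent of each other.

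For Cdkn1b the mean was 677 ± 41.3 with PF-303 (n = 5) and 317 ± 42 with vehicle (n = 4), a ratio of 2.09 on the scale with 16 added. For Cdk6 it was 202 ± 3.18 with PF-303 and 369.7 ± 53.4 with vehicle, a ratio of 0.57, and its 5 arrays with PF-303 lay within 198 to 206. Cdk6 1455287_at (-0.86 ± 0.09) and all 7 probe sets of Ccnd2 (-0.66 to -0.43), which are not independent of each other, were called lower too, where 11.7% of all probe sets were called lower. Cdkn1b 1419497_at (0.45 ± 0.13) and Ccng2 1448364_at (0.52 ± 0.15) were called higher, the first at less than the value of the brighter probe set.

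Cdk4 was the kinase that did not follow. It averaged 643 ± 91.6 with anti-IgD and PF-303 and 662 ± 46.2 with anti-IgD and vehicle, a difference of -0.05 ± 0.10 (95% interval -0.25 to 0.15, adjusted p = 0.75). Ccnd3 was at 0.30 ± 0.14 (adjusted p = 0.12) and its probe set 1438805_at at -0.41 ± 0.23, so the sign differed between probe sets and neither was called. Cdkn1a (-0.31 ± 0.14) and Rb1 (0.05 ± 0.09) were not called. The spike-in controls, read by the Bio and Cre control probe sets of the array, exceeded 2 times their median signal in 2 of the 5 stimulated arrays with PF-303 and in 0 of the 4 with vehicle. They did so in 2 of the 5 arrays of PBS with PF-303 and in 2 of the 4 of PBS with vehicle. Without the 6 such arrays of the series each of the 6 calls was kept, as were the 7 calls of anti-IgD with vehicle against PBS with vehicle.

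**Figure D3:**
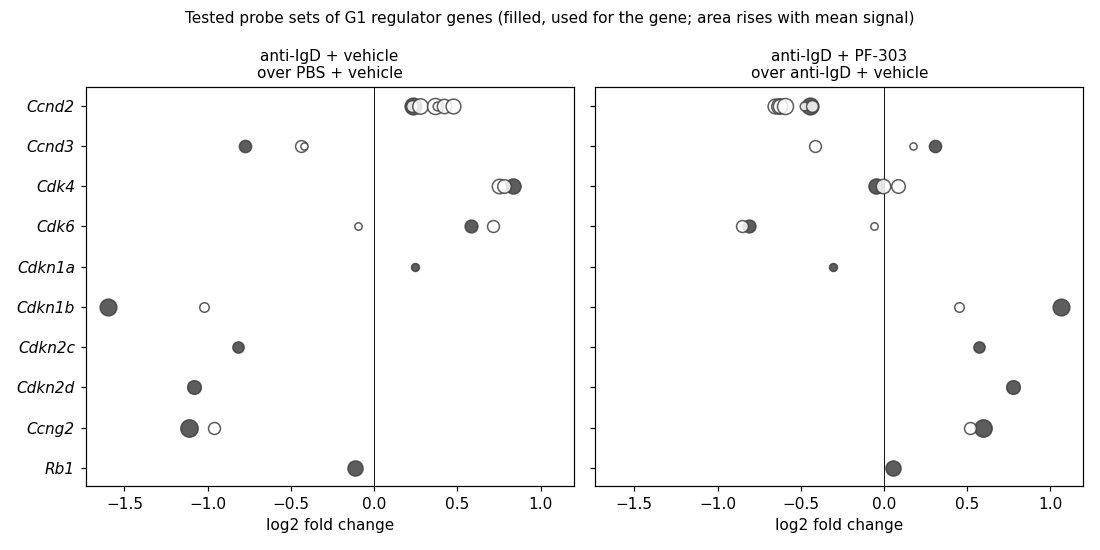
Log2 fold change of every tested probe set of the 10 genes, for anti-IgD with vehicle over PBS with vehicle (left) and anti-IgD with PF-303 over anti-IgD with vehicle (right). Filled circles are the probe sets used for the gene, open circles the others, and the circle's area rises with the mean signal. The 7 probe sets of Ccnd2 lie right of 0 on the left and left of 0 on the right, while the probe sets of Ccnd3 split on the right.

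Without anti-IgD, PF-303 changed little. Cdk6 was the 1 gene of the 10 called, at 173 ± 21.1 in PBS with PF-303 (n = 5) and 240.5 ± 15.1 in PBS with vehicle (n = 4), or -0.45 ± 0.09 on the log2 scale (adjusted p = 0.017). All 5 arrays with PF-303 (at most 203) were below all 4 with vehicle (at least 219), and 1455287_at gave -0.47 ± 0.09 (adjusted p = 0.0078 over all probe sets). Over all genes tested, 0.0720% were higher and 0.675% lower. The call was lost on shifting every array to one median (-0.43), with the row letter of the position code as a block (-0.40), without the 6 arrays whose spike-in signal was high (-0.47), with only the PBS arrays in the fit (-0.45) and on leaving out 1 of 5 single arrays, namely 1, 2 or 4 of PBS with PF-303 and 1 or 3 of PBS with vehicle (-0.44 to -0.42). In the 3 rows that held both groups, the differences were -0.45, -0.56 and -0.42, from 1 or 2 arrays a group.

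Cdkn2d came next, with means of 479 ± 59.6 in PBS with PF-303 and 357 ± 46.7 in PBS with vehicle and no overlap between the groups. Its log2 fold change of 0.41 ± 0.10 did not pass the test (adjusted p = 0.055). Ccng2 did not overlap either, but the difference was 0.14 ± 0.09 (adjusted p = 0.62). Ccnd2 (-0.25 ± 0.12) and Ccnd3 (-0.24 ± 0.14) were not called, nor were Cdk4 (-0.08 ± 0.10), Cdkn1b (0.08 ± 0.09), Cdkn2c (0.13 ± 0.11), Cdkn1a (0.16 ± 0.14) and Rb1 (0.12 ± 0.09).

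With PF-303 on board, anti-IgD still left Cdk4 higher and the same 4 brake genes lower. Against PBS with PF-303, Cdk4 was higher (0.86 ± 0.09, adjusted p = 1e-07), and Cdkn2d (-0.72 ± 0.09), Ccng2 (-0.66 ± 0.09), Cdkn1b (-0.61 ± 0.08) and Cdkn2c (-0.37 ± 0.10, adjusted p = 0.0053) were lower. Over all genes tested, 14.7% were higher and 19.1% lower. Cdk6 was at 0.22 ± 0.09 (adjusted p = 0.056), just short of the threshold, and its probe set 1455287_at at 0.33 ± 0.08 (adjusted p = 0.0041 over all probe sets). Ccnd3 (-0.23 ± 0.14), Cdkn1a (-0.22 ± 0.13), Rb1 (-0.19 ± 0.09) and Ccnd2 (0.04 ± 0.11) were not called.

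Set beside the response in vehicle-treated mice, with which it shares no array, the response under PF-303 was 103% for Cdk4, 66.3% for Cdkn2d, 59.0% for Ccng2, 45.8% for Cdkn2c, 38.2% for Cdkn1b, 37.3% for Cdk6 and 29.9% for Ccnd3, as shares of log2 fold changes. These shares are those of the probe set used for each gene. At Cdkn1b 1419497_at the responses were -0.73 under PF-303 and -1.02 with vehicle, at Ccnd3 1438805_at -0.53 and -0.44, and at Ccnd3 1444323_at -0.04 and -0.42. The difference between both responses was tested as an interaction, which passed for 2 of the 10 genes: Cdkn1b (0.99 ± 0.12, adjusted p = 4.2e-05) and Ccng2 (0.46 ± 0.13, adjusted p = 0.026). Over all genes tested it passed with a value above 0 for 6.66% and below 0 for 3.12%. For both genes the positive sign means a smaller fall under PF-303. At Cdkn1b 1419497_at the interaction was 0.29 ± 0.19 (adjusted p = 0.4 over all probe sets) and at Ccng2 1448364_at 0.31 ± 0.21 (0.41), so the call rests on the brighter probe set of each gene. The Ccng2 call was also lost on shifting arrays to one median (0.41), with the mean of its probe sets (0.39) and without replicate 5 of anti-IgD with vehicle (0.37).

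For Cdk4 the interaction was 0.03 ± 0.13, with a 95% interval of -0.25 to 0.31, both ends of which are smaller than its response of 0.83 in vehicle-treated mice. For Cdk6 it was -0.36 ± 0.13 (adjusted p = 0.076), for Cdkn2c 0.44 ± 0.15 (0.063), for Ccnd3 0.54 ± 0.20 (0.095) and for Cdkn2d 0.37 ± 0.14 (0.11), none of which passed. The remaining values were -0.47 ± 0.20 for Cdkn1a, -0.20 ± 0.17 for Ccnd2 and -0.07 ± 0.13 for Rb1. At the other probe sets of Ccnd2 the interaction ranged from -0.63 to -0.15. Of these 1448229_s_at was called lower (-0.41 ± 0.12, adjusted p = 0.05 after rounding), where 2.77% of all probe sets were. Ccnd2 was also called lower with the mean of all its probe sets. On leaving out the 6 arrays whose spike-in signal was high, 4 genes passed, Cdkn2c (0.59) and Cdkn2d (0.61) in addition.

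**Figure D4:**
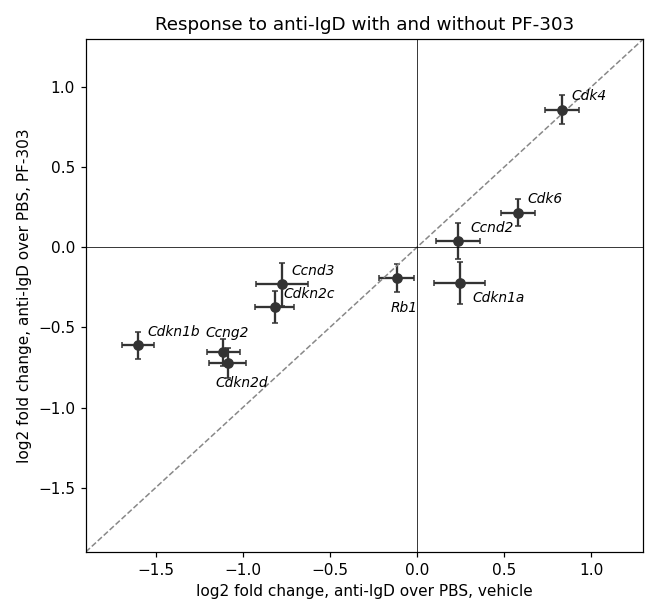
Log2 fold change of anti-IgD over PBS with vehicle (horizontal axis) and with PF-303 (vertical axis) for the 10 genes, with SE bars. The dashed line marks equal responses. Cdk4 lies on the line at 0.83 and 0.86, Cdkn1b lies farthest above it at -1.60 and -0.61, and the groups on the axes share no arrays.

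Against PBS with vehicle, cells given both PF-303 and anti-IgD had higher Cdk4 (0.78 ± 0.10, adjusted p = 1.7e-06) and lower Cdkn1b (-0.54 ± 0.09), Ccng2 (-0.52 ± 0.09), Ccnd3 (-0.47 ± 0.14, adjusted p = 0.019) and Cdkn2d (-0.31 ± 0.10, adjusted p = 0.026). Over all genes tested, 12.0% were higher and 13.4% lower, 1335 and 1493 genes, which became 1567 and 974 on shifting arrays to one median. Single arrays ended 2 of these calls. For Ccnd3 they were replicates 2 and 5 of the group given both agents and replicates 1 and 4 of PBS with vehicle (-0.42 to -0.40), and for Cdkn2d replicate 1 of the group given both agents and replicates 1 and 2 of PBS with vehicle (-0.29 to -0.24). The Cdkn2d call was also lost on shifting arrays to one median (-0.25) or with only these arrays in the fit (-0.31). Cdk6 was below PBS with vehicle in every array (-0.23 ± 0.09, adjusted p = 0.066) without passing the test, and Cdkn2c was at -0.24 ± 0.11 (adjusted p = 0.099).

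Across the 18 arrays the signals of Cdkn1b, Cdkn2c, Cdkn2d and Ccng2 ran together, and that of Cdkn1a did not run with them. On the log2 scale Pearson's r was 0.94 between Cdkn1b and Ccng2, 0.933 between Cdkn1b and Cdkn2d, 0.931 between Cdkn2c and Cdkn2d and 0.901 between Cdkn1b and Cdkn2c, and between Cdkn1a and these 4 genes it was -0.232 to -0.079. Against the kinases r was -0.881 for Ccng2 with Cdk4 and -0.847 for Cdkn1b with Cdk6, while Cdk4 and Cdk6 had an r of 0.518. These are descriptions over 4 groups that differ in treatment, and they carry no test.

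The same measure over all tested genes named the patterns closest to each gene. For Cdkn1b these were Marchf1, which encodes a membrane-bound ubiquitin ligase that acts on MHC class II (r = 0.984), Ermp1 (0.984) and Crot, which encodes a carnitine acyltransferase of peroxisomes (0.98). Those of Ccng2 were Gimap9 (0.984), Card6 (0.984) and the kinase gene Jak2 (0.982), those of Cdkn2d Tifa (0.974), the polymerase subunit gene Pold4 (0.972) and Abi3 (0.971), and those of Cdkn2c Kdelr1 (0.958), Ppm1m (0.958) and Smyd4 (0.954). Cdk4 was closest to the insulin receptor substrate gene Irs2 (0.972), Sco2 (0.966) and Exoc2 (0.964). Cdk6 was closest to Casp4 (0.934), Nfkbid, which encodes an atypical IkB protein (0.928), and Kcnq5 (0.927). Likeness was lower for Ccnd2 (Trpc2, Ankrd33b and Prpf31, 0.859 to 0.887), Ccnd3 (Kdm2a, Men1 and Slc25a37, 0.86 to 0.877), Rb1 (Fbxo8, Chmp1b and Arhgap21, at most 0.867) and Cdkn1a (Zfp619, Fndc3b and Ms4a8a, 0.7 to 0.755).

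The targets of the cyclin D kinases and their partners were followed on 7 lists, counted with the same test. Their counts for anti-IgD with vehicle stand against 17.4% higher and 30.6% lower among all genes tested, and those for PF-303 in stimulated cells against 19.8% higher and 10.4% lower. Of 12 genes of pocket proteins, E2F and DP factors, anti-IgD with vehicle had 2 higher and 4 lower (median -0.24, beside -0.13 for all genes). The 4 were E2f2, an activating E2F (-1.57 ± 0.15, adjusted p = 1.8e-08), Rbl2, which encodes the pocket protein p130 of quiescent cells (-1.39 ± 0.14), Tfdp2, which encodes a DP partner of E2F (-1.14 ± 0.12), and Rbl1, which encodes p107 (-1.12 ± 0.08). Rbl2 averaged 188 ± 22.7 with anti-IgD and PF-303, 115 ± 18.8 with anti-IgD and vehicle, 311 ± 26.6 with PBS and PF-303 and 333 ± 87.6 with PBS and vehicle (SD). With PF-303 in stimulated cells 5 of the 12 were higher and 2 lower (19.8% and 10.4% among all genes), and the 4 named genes were among the higher, Rbl2 at 0.65 ± 0.13 and E2f2 at 0.60 ± 0.14. The interaction passed for 1 of the 12, Rbl2 (0.71 ± 0.19, adjusted p = 0.02). Rb1 itself thus stayed uncalled while both of its relatives fell.

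Of 7 further cyclins and kinases of G1 and S phase, 1 was higher with anti-IgD and vehicle, the phosphatase gene Cdc25a, which removes inhibitory phosphates from CDKs (0.39 ± 0.09), and 2 were lower, the cyclin E gene Ccne1 (-0.56 ± 0.13) and the cyclin A gene Ccna2 (-0.42 ± 0.15). Cdk1, the mitotic kinase, was at -0.40 ± 0.19 and not called. Of the other CDK inhibitors and parts of the CDK-activating kinase, 4 of 7 were tested, since Cdkn1c, Cdkn2a and Cdkn2b were below the filter. Of these Ccnh (0.30 ± 0.08) and Cdk7 (0.30 ± 0.12), both parts of the CDK-activating kinase, were higher, Cdkn3, which encodes a phosphatase acting on CDKs, was lower (-0.45 ± 0.17) and Mnat1 was at 0.00 ± 0.13.

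Of 8 other cyclins 2 were higher, Ccnt1, a partner of the transcription kinase CDK9 (0.50 ± 0.09), and Ccnl1 (0.34 ± 0.10), and 3 were lower, beside 17.4% and 30.6% of all genes. The largest fall among them was that of Ccng1, the closest relative of Ccng2 (-0.87 ± 0.07, adjusted p = 2.5e-09), with 591 ± 23.6 in anti-IgD with PF-303, 399 ± 11.3 in anti-IgD with vehicle, 832 ± 61.6 in PBS with PF-303 and 742 ± 61.2 in PBS with vehicle (SD). Its interaction passed too (0.39 ± 0.10, adjusted p = 0.016), and Ccnl2 was lower by a smaller amount (-0.26 ± 0.07). Both cyclin G genes thus fell with anti-IgD, and both fell less under PF-303.

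Of 12 S phase genes tested of 14, 2 were higher with anti-IgD and vehicle, Pcna, which encodes the sliding clamp of DNA polymerases (0.87 ± 0.09), and the licensing factor gene Cdt1 (0.44 ± 0.07), and 2 were lower, the ribonucleotide reductase gene Rrm2 (-0.59 ± 0.17) and the helicase gene Mcm4 (-0.24 ± 0.09), where 17.4% of all genes were higher and 30.6% lower. The MuvB complex takes part in holding cell-cycle genes off in quiescent cells. Of 7 genes on its list, which also holds the MYB family genes Mybl1 and Mybl2, 0 were higher and 2 lower, Lin37 (-0.55 ± 0.13) and Lin9 (-0.36 ± 0.13), with Rbbp4 at 0.17 ± 0.09 and Lin54 at 0.21 ± 0.14. Of 10 ubiquitin ligase parts acting on G1 regulators, Ddb1 was higher (0.25 ± 0.09) and Skp2, whose product marks p27 for destruction, lower (-0.43 ± 0.15), with Skp1 at 0.14 ± 0.09 and Cul1 at 0.16 ± 0.09. The medians of these 3 lists were -0.01, -0.15 and 0.02, and those of the 7 further cyclins and kinases, the other inhibitors and the other cyclins were 0.10, 0.15 and -0.11.

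With PF-303 in stimulated cells, the count of higher and of lower genes was 0 and 1 for the 7 further cyclins and kinases, 0 and 0 for the other inhibitors, 2 and 2 for the other cyclins, 0 and 1 for the S phase genes, 1 and 0 for MuvB and 0 and 0 for the ubiquitin ligase parts, beside 19.8% and 10.4% of all genes. Cdc25a (-0.25 ± 0.09), Ccnt1 (-0.22 ± 0.09), Ccnl1 (-0.28 ± 0.10) and Cdt1 (-0.25 ± 0.07) were lower, and Ccng1 (0.55 ± 0.07) and Lin37 (0.38 ± 0.12) were higher. Pcna was at -0.21 ± 0.09 (adjusted p = 0.078).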

How the data were processed

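The authors deposited a linear intensity for each probe set, the MAS5 signal, per the submitters' processing notes. The version and settings of MAS5 are not given in the sources used here. The method subtracts mismatch from perfect-match probes, which makes low signals noisy. All 18 arrays share one trimmed mean, so differences in total RNA per cell are removed. RNA input was 150 ng per sample, per the labels' protocols.

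Control probe sets were dropped and log2(signal + 16) was used. A probe set was kept if at least 4 arrays exceeded 15.2, the median over all values, and each gene was represented by its probe set of highest mean. All 18 arrays entered 1 limma 3.58.1 fit (R 4.3.3) of group means, by lmFit and trended eBayes, from which 6 contrasts were drawn. Two-sided p-values were adjusted after Benjamini and Hochberg across genes. The number of arrays limits the precision: the median SE on the log2 scale was 0.129 for anti-IgD with vehicle against PBS with vehicle and 0.174 for the interaction. The smallest SD of log2 differences between 2 arrays was 0.239, so no 2 arrays held the same values. The fit was tested on simulated data with known changes.

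Arrays carry replicate numbers, used as a block in an alternative only. The labels also hold a position code whose row letter, of unstated meaning, served as a block in an alternative. Anti-IgD with vehicle shared only row C with PBS with vehicle, with 1 array of each. It also shared only row C with anti-IgD with PF-303, with 1 array against 2. Row and treatment can thus hardly be told apart in these contrasts. Named are all 10 genes with their probe sets, up to 4 genes of each of 7 pathway lists with the smallest adjusted p for anti-IgD with vehicle against PBS with vehicle, and the 3 genes of highest r with each gene. Genes beyond these were named after their values were seen. Of 10 marker lists, follicular B, macrophage and T-cell markers are described with the results. Summed over the 18 arrays' range, plasma cell markers (4 genes) reached 3189 to 5581, of which Xbp1 and Jchain made up most, neutrophil markers 92.8 to 858, platelet and megakaryocyte markers 92.2 to 326, erythroid markers 23.3 to 321, NK-cell markers 36.2 to 164, T-cell markers 55.4 to 147, dendritic cell markers 57.8 to 104 and germinal centre B markers 35.1 to 88.9. The members and lists were chosen with earlier results of these data known. Promoter windows are RefSeq's, in GRCm38.p6.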

Additional observations from a re-analysis of the deposited data

Results flagged for a closer look

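Of the 10 genes, 2 responded to anti-IgD by different amounts with and without PF-303 in a test of the difference itself, the limma interaction over all 18 arrays. For Cdkn1b the difference of log2 fold changes was 0.99 and for Ccng2 0.46, in each case with the smaller fall under PF-303. Over all genes tested, the interaction passed with a value above 0 for 6.66% and below 0 for 3.12%. The other probe set of each gene was not called (0.29 for Cdkn1b and 0.31 for Ccng2), and the Ccng2 call was lost under some other settings. In 40 checks of a single array standing apart within its group, 4 groups for each of the 10 genes, 0 arrays did so. The check set the gap between an extreme array and its neighbour against the range of the group. In groups this small it finds only extreme cases. It did not flag replicate 3 of PBS with vehicle for Ccnd2 (1075), without which that gene was called higher with anti-IgD and vehicle.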

How the results depend on the processing

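No value of the 10 genes changed sign while called. Of 824 values under other processing settings 791 stayed on their side of the threshold, 8 lost a call and 25 gained one, and of 1080 values on leaving out 1 array these counts were 1047, 13 and 20. For PBS with PF-303 against PBS with vehicle, where 1 of the 10 genes and 83 of all genes were called, the number of the 10 was 2 with a filter at 4 times the median, with the mean of all probe sets, with the spike-in covariate and with a replicate block, and 0 on shifting arrays to one median, with the position row as a block, without arrays whose spike-in signal was high and with only the groups compared. The gain was Cdkn2d (0.40 to 0.42) and the loss Cdk6. All genes called there numbered 47 on the shift to one median, 42 with the position row, 155 with the spike-in covariate, 46 without arrays whose spike-in signal was high and 28 with only the groups compared. Leaving out 1 array gave 0 to 2 of the 10 and 42 to 108 of all genes.

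For the interaction, with 2 of the 10 genes and 1086 of all genes called, the shift to one median gave 1 of the 10, and leaving out those arrays 4 of the 10 and 715 of all genes. The position row gave 291 of all genes, and single arrays left out gave 1 to 4 of the 10. PF-303 in stimulated cells had 3352 genes called, and 1725 with the position row. Anti-IgD with PF-303 against PBS with vehicle had 5 of the 10 called, and 3 to 6 on leaving out 1 array. Ccnd2, not called with anti-IgD in vehicle-treated mice, was called on the shift to one median, with the mean of its probe sets, the replicate block, the position row, the spike-in covariate and without arrays whose spike-in signal was high (0.31 to 0.37). For anti-IgD in vehicle-treated mice, 1928 genes were higher and 3394 lower, and 2223 and 2603 after the shift to one median. The causes were not tested. Same-numbered arrays of different groups share only a number in the labels, and over 24 such pairs the r of their deviations from the group means ranged from -0.161 to 0.225 with a median of -0.002. The highest r of any pair of arrays from different groups was 0.448, between replicate 4 of PBS with vehicle and replicate 1 of anti-IgD with PF-303. These arrays also had the highest ratios of 3' to 5' control signal, a measure of RNA quality. For Gapdh the ratios were 1.22 and 1.11, and at most 0.826 elsewhere. For actin they were 1.53 and 1.4, and at most 1.32 elsewhere. The part of RNA quality in the results was not tested. The replicate block changed no call of the 10 genes beyond those of Cdkn2d, Ccnd2, Cdk6 (0.22 for anti-IgD with PF-303 against PBS with PF-303 and -0.27 against PBS with vehicle) and Rb1 (-0.19). Signals near the filter level, as of Cdkn1a, limit what can be seen.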
